A study of Mus musculus with 6 samples.

Results

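Proteasome subunit genes were followed in embryonic fibroblasts of the mouse, of wild type or Wrn mutant genotype, on 6 two-colour Agilent arrays. The members are the non-control probes whose gene name on the array is Psm followed by a letter from a to g and a number. There were 62 such probes for 40 genes, out of 41174 probes on the array. By known role, they cover 7 alpha ring genes, 7 constitutive beta ring genes, the 3 immunoproteasome genes, 6 ATPases, 3 other base genes, 7 lid genes, 3 base assembly chaperones, 3 activators and 1 inhibitor. Psma8, Psmb11, Psmd6, Psme2 and Psmg1 to Psmg4 had no probe under those names.

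The primary cells came from embryos at day 15 (E15) of mixed 129/Sv and Black Swiss background, in both genotypes. The mutant, labelled WS, lacks part of the helicase domain of Wrn, the gene of Werner syndrome, with the reading frame kept. Arrays 1 and 2 of each genotype set cells treated with 0.5 mM H2O2 for 1 hour and left for 24 hours (Cy5) against untreated cells of the same genotype (Cy3). Arrays 3 and 4 set untreated cells of both genotypes against each other. The labels call the 2 arrays of each comparison biological replicates, and no dye swap was made, so a dye preference of a probe enters every ratio. The labels do not say that the cultures came from separate embryos, so p-values measure the spread between these samples only.

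The proteasome degrades proteins tagged with ubiquitin. A barrel-shaped core of alpha and beta rings holds the proteolytic sites, and a regulatory particle with a ring of ATPases, further base subunits and a lid binds, strips and unfolds the substrates. In cells exposed to interferon, Psmb8, Psmb9 and Psmb10 replace the catalytic beta subunits Psmb5, Psmb6 and Psmb7, and the resulting immunoproteasome favours peptides for display on class I molecules. After oxidative stress, oxidized proteins are also removed by the proteasome, and constitutive subunit genes are known to be regulated together.

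The member probes were mostly well above background, in Cy3 on all 6 arrays for 56 of 62 and in Cy5 on all 6 for 49. The scanner software had marked between 0 and 28 member spots per array as outliers, with the most on wild type treatment array 2 (45.2% of the member spots against 22.6% of all spots). Those spots were left out, so 52 of 62 probes kept a value for H2O2 in wild type cells, 62 for H2O2 in mutant cells and 61 for the genotype arrays. The 4 Wrn probes were dim and differed between genotypes by log2 ratios of -0.91 to 0.38, and 1 of them, the dimmest, passed the test. Where they lie relative to the deletion is not known here, so they do not check the labels.

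**Figure D1:**
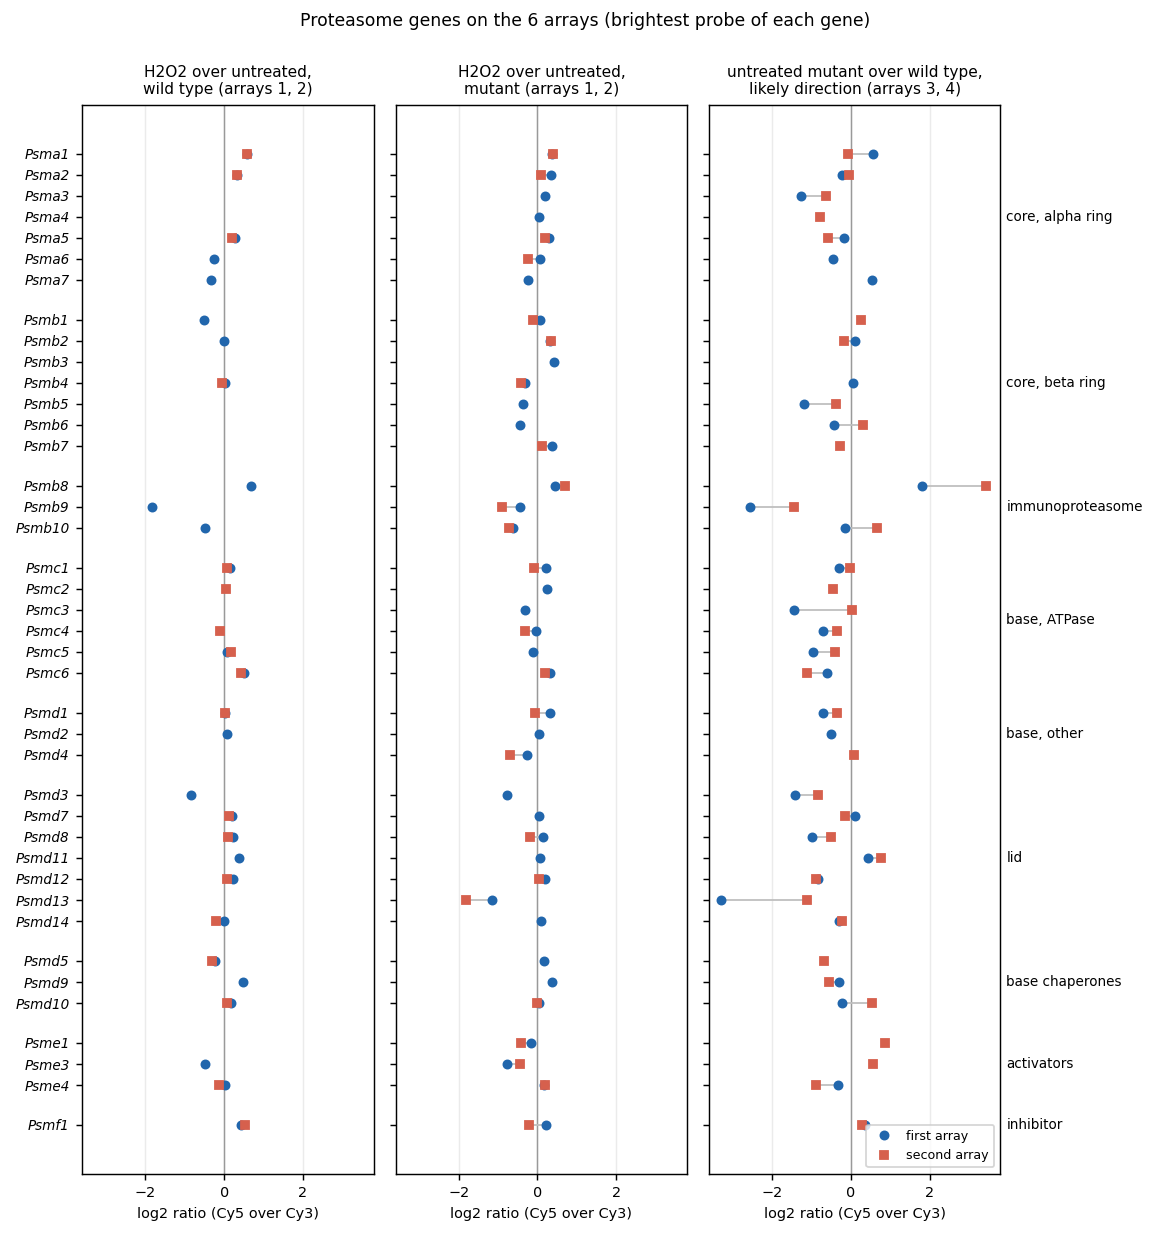
Log2 ratio of Cy5 over Cy3 (horizontal axes) for the brightest probe of each of the 40 proteasome genes (rows, grouped by role), with the first array of each comparison as a circle and the second as a square. Points are missing where the spot was marked as an outlier, and the widest departures from 0 are Psmb8 (up to 3.42) and Psmd13 (down to -3.29) in the genotype panel.

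The genotype comparison held the larger differences. Its ratios are given as mutant over wild type. This direction is likely rather than settled, because it follows the study's own list, while the dyes in the labels would turn the sign of every genotype array ratio. It was also set against the Cy3 channel of the 4 treatment arrays, where labels and methods give the same genotypes: of the 7887 called probes measured in both, 91.7% had the same sign. Of 61 member probes with a value on the genotype arrays, 16 were called at an adjusted p under 0.05 in limma (26.2%), against 19.6% of all probes. Of these, 3 were higher in mutant cells (9.83% of all probes were called higher) and 13 were lower (21.3%, against 9.78% of all probes). Some genes had more than 1 called probe, so the 16 probes came from 11 genes and the 13 lower ones from 10. Member probes below 0 numbered 45 of 61, against 50.1% of all probes, and 29 of the 42 measured on both arrays were below 0 on both, against 32.4%. At an unadjusted p under 0.05, 5 were higher (18.1% of all probes) and 25 lower (17.9%). The median over 39 genes, 1 probe each, was -0.38 beside 0.03 for all genes, but with median centring of each array in place of loess it turned to 0.16. All 13 probes called lower kept their sign under each alternative run, median centring included. The count of calls was 3 (1 higher and 2 lower) with the ratios of the scanner software. It was 6 with median centring and 9 with the day of image readout as a random block. With the marked spots kept it was 27, of which 5 were higher and 22 lower. In such bulk RNA, fewer cells of a type and less RNA per cell cannot be told apart.

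In the alpha ring, which gates entry to the core, the median of 7 genes was -0.38 and 1 of 8 probes was called, while with median centring the median turned to 0.23. The called probe was Psma3, at -1.26 on array 3 and -0.62 on array 4 (log2 ratio -0.94 ± 0.23, SE of the fit; adjusted p = 0.0466). Psma1, the highest core gene, stood at 0.55 and -0.08, on both sides of 0. The constitutive beta ring, which holds the catalytic sites, had a median of -0.04 over 6 genes (0.42 with median centring) and no called probe among 7. The lowest was Psmb5, the subunit with the chymotrypsin-like site, at -1.18 and -0.37 (adjusted p = 0.0959), the only probe of this ring with an unadjusted p under 0.05. With the marked spots kept, the median over 7 genes was -0.19 and 2 of 8 probes were called lower. They were the brightest Psmb3 probe, at -0.59 and -0.89 (adjusted p = 0.0206), and the Psmb5 probe (adjusted p = 0.0497).

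The ATPases unfold the substrate and drive it into the core. By the brightest probe of each gene, the fitted ratio was below 0 for 6 of 6 genes (median -0.61), and for 5 of 6 with median centring (median -0.15). Among them, Psmc3 lay on both sides of 0, at -1.44 and 0.03 (adjusted p = 0.244), and Psmc2 had -0.45 on array 4 alone. Of 9 probes, 2 were called, both lower in mutant cells, beside 9.78% of all probes called lower. Psmc6 had values of -0.60 and -1.11 on its brightest probe (-0.86 ± 0.18, adjusted p = 0.0190), but 0.36 and -0.48 on its other probe (adjusted p = 0.862), on both sides of 0. Psmc4 had values of -0.96 and -0.49 on the called probe (-0.73 ± 0.19, adjusted p = 0.0478) and -0.72 and -0.36 on its other probe (adjusted p = 0.0943). The least changed ATPase, Psmc1, stood at -0.30 and -0.02. None of the 5 probes of the other base subunits was called. Psmd1, a scaffold of the base, stood at -0.70 and -0.34 (adjusted p = 0.0816).

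The lid, which carries the deubiquitinase that strips ubiquitin from the substrate, held 8 of the 16 calls, 7 lower and 1 higher among 14 probes. These calls came from 5 genes. Of all probes, 9.78% were called lower and 9.83% higher. The lid median over 7 genes was -0.74, and -0.34 with median centring. Psmd12, a structural lid subunit, was called lower by each of its 3 probes. The brightest gave -0.84 and -0.88 (-0.86 ± 0.15, adjusted p = 0.0116), another -0.44 and -0.97 (adjusted p = 0.0352), and the dimmest -2.89 and -1.35 (-2.12 ± 0.35, adjusted p = 0.00911). The probes thus shared their direction and differed in size by over 1.

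Further structural lid genes were called lower by the brightest probe. Psmd3 had values of -1.42 and -0.84 (adjusted p = 0.0265) and Psmd8 values of -0.98 and -0.51 (adjusted p = 0.0331). Psmd13 had the largest fall of these, -2.20 ± 0.49 (adjusted p = 0.0299), but its arrays lay far apart at -3.29 and -1.11. Its Cy5 signal lay below Cy3 on the H2O2 arrays too. With marked spots kept, those ratios were -2.78 and -1.81 in wild type and -1.16 and -1.80 in mutant cells. In the Cy3 channel of the treatment arrays, likewise with marked spots kept, the genotype difference was -0.40 (adjusted p = 0.734). The part of the dye in its ratio was not tested. Psmd14, the deubiquitinase, was not uniform. Its brightest probe stood at -0.30 and -0.24 (adjusted p = 0.294), and another was called lower at -1.42 and -0.65 (adjusted p = 0.0291). Its dimmest probe was called higher at 0.68 and 0.65 (adjusted p = 0.0229), but with median centring it turned to -0.18. Neither dye was well above background there on either array, so no fold is given. Psmd11 was the highest lid gene, with 0.44 and 0.76 (adjusted p = 0.0875). With the marked spots kept it was called higher, at 0.50 and 0.78 (adjusted p = 0.0338).

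Among the genes outside the particle itself, the activator Psme4, which caps the core and serves in the breakdown of acetylated histones, was called lower on 2 of 4 probes. One gave -1.33 and -1.43 (-1.38 ± 0.15, adjusted p = 0.00285) and kept its call under each of the 10 alternatives run. The other gave -2.62 and -1.66 (adjusted p = 0.00296). Its Cy5 signal, mutant in the likely direction, was not well above background on either array, and against the lowest such signal it was at least 2.22-fold lower in mutant cells. The remaining Psme4 probes stood at -0.33 and -0.87 (adjusted p = 0.0602) and, with array 3 alone, at -0.75. Psme1 and Psme3, subunits of other activator rings, had a value on array 4 alone, 0.87 and 0.55, above 0 where Psme4 was below. With the marked spots kept, Psme1 stood at 0.61 and 0.88 and was called higher (adjusted p = 0.0188). Psme3 then stood at 0.04 and 0.57 (adjusted p = 0.405).

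The base assembly chaperones and the inhibitor held no call. Psmd9 stood at -0.29 and -0.56 and Psmd10 at -0.22 and 0.54. The probes of the inhibitor Psmf1 disagreed, with 0.36 and 0.29 on the brightest and -1.14 and -0.31 on another (adjusted p = 0.0836). A spread over 1 between probes of a gene was seen on the genotype arrays for 2 of 12 genes with several bright probes, Psmd12 and Psmf1.

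**Figure D2:**
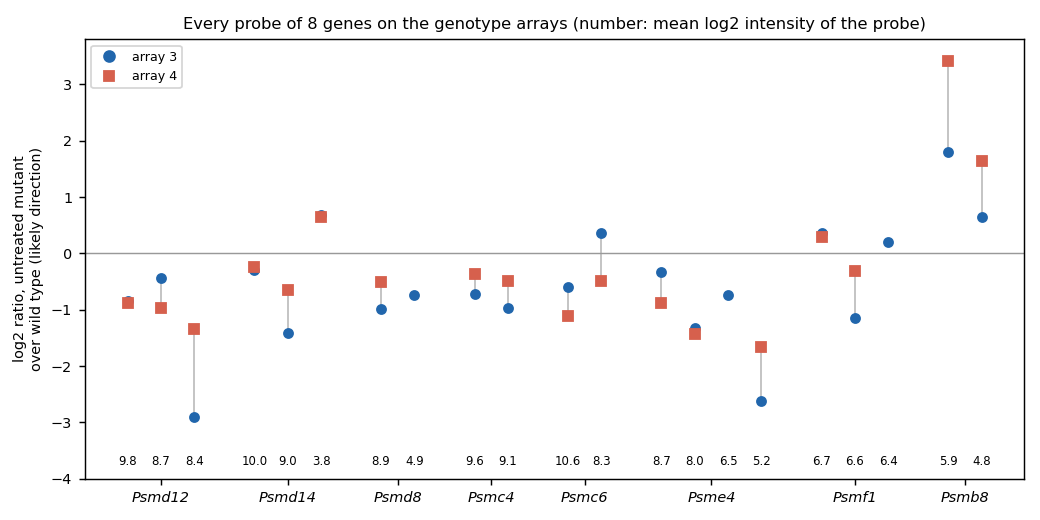
Log2 ratio of untreated mutant over wild type cells (vertical axis, likely direction) for every probe of 8 genes with several probes, with array 3 as circles and array 4 as squares, and the mean log2 intensity of each probe printed below it. All 3 probes of Psmd12 lie below 0, those of Psmd14 and Psmf1 lie on both sides, and both probes of Psmb8 lie above 0 on both arrays.

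The immunoproteasome genes did not move as a set. Psmb9 was called lower in mutant cells, with -2.55 on array 3 and -1.43 on array 4 (-1.99 ± 0.29, adjusted p = 0.00911). Psmb8 was called higher by both of its probes, the brighter at 1.81 and 3.42 (2.62 ± 0.37, adjusted p = 0.00831) and the dimmer at 0.65 and 1.63 (1.14 ± 0.29, adjusted p = 0.0358). On array 4 the wild type signal of the brighter probe and the mutant signal of the dimmer were not well above background. With normexp background correction the brighter stood at 0.86, still called, and the dimmer at 0.29, and the dimmer was called under 3 of 9 alternatives. Psmb10 lay on both sides of 0, at -0.15 and 0.67 (adjusted p = 0.465). Of the catalytic subunits that these genes replace, Psmb6, the counterpart of Psmb9, stood at -0.43 and 0.31, and Psmb7, that of Psmb10, at -0.26 on array 4 alone. Psmb5, the counterpart of Psmb8, was given above.

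In the untreated cells of the treatment arrays, the normalized log2 Cy3 signal of Psmb9 was 7.96 in wild type culture 1, against 6.58 and 6.61 in the mutant cultures (difference -1.37 ± 0.45, adjusted p = 0.157). Its spot in wild type culture 2 was marked, and read 9.44 when kept, so both wild type readings lay above both mutant readings. The brighter Psmb8 probe read 4.53 in wild type culture 1 and 6.16 and 6.103 in mutant cells (difference 1.61 ± 0.45, adjusted p = 0.0810). Its marked spot in wild type culture 2 read 7.80, above both mutant cultures, and with it the difference was -0.03. The dimmer Psmb8 probe read 3.66 and 5.29 in wild type and 4.88 and 4.29 in mutant cells, so the groups overlapped. Psmb10 read 8.62 in wild type culture 1 and 8.86 and 8.24 in mutant cells. Its marked spot in culture 2 read 9.81, above both mutant cultures, and with it the difference moved from -0.06 to -0.66. In this channel Psmb8 was thus higher in mutant cells than in wild type culture 1 and lower than in culture 2. The same Cy3 signals are the denominators of the H2O2 ratios below.

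**Figure D3:**
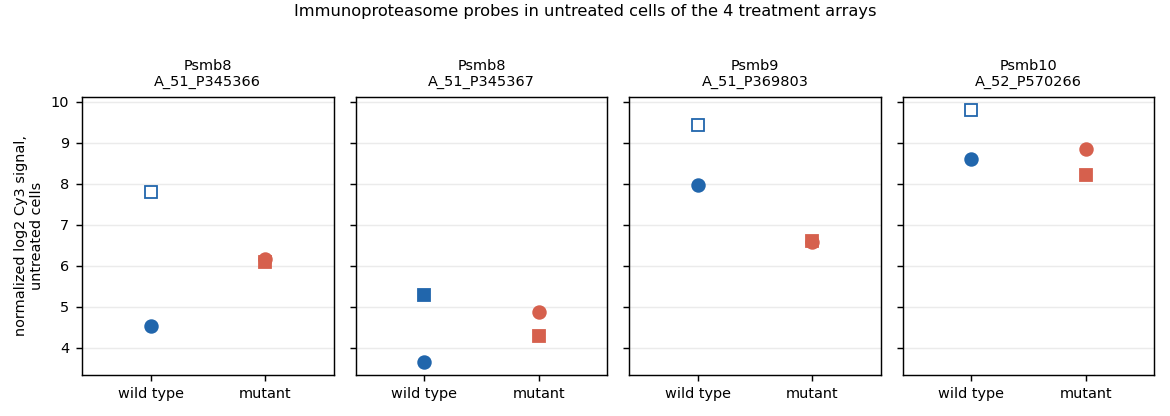
Normalized log2 Cy3 signal (vertical axis) of the 4 immunoproteasome probes in the untreated wild type and mutant cultures of the treatment arrays, with culture 1 as a circle, culture 2 as a square and marked spots as open symbols. Mutant cultures lie below both wild type cultures for Psmb9, and between them for the brighter Psmb8 probe, which reads 4.53 and 7.80 in wild type cells.

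Psmb9 lies next to Tap1, the gene of a peptide transporter, and both are transcribed away from one short stretch. It is shown because the neighbours had different values: Psmb9 was called lower, while Tap1 stood at 0.05 and 1.07 (adjusted p = 0.170). The Tap1 probe was dim (mean log2 intensity 5.32), with Cy5 well above background on 3 of 6 arrays. Its Cy3 difference on the treatment arrays was 0.07. The stretch between the annotated starts is chr17:34187331-34187555 (RefSeq, GRCm38.p6), 225 bases, given on the plus strand in the direction of Tap1, with matches to the motifs listed below in capitals. The 250 bases before the start of Psmb8, called the other way, are chr17:34197945-34198194 on the plus strand.

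Psmb9 and Tap1: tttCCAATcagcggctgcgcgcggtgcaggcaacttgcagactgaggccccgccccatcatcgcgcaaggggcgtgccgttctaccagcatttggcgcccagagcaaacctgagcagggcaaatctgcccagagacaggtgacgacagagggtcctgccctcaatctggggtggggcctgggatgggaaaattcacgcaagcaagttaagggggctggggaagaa
Psmb8: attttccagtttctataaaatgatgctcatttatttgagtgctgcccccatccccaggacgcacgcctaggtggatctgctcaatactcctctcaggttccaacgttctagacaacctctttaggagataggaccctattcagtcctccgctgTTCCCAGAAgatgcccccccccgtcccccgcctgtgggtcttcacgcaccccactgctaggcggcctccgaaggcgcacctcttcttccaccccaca

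The capitals mark a CCAAT box, the site of NF-Y, in the shared stretch and a TTCNNNGAA, the pattern read by STAT factors, before Psmb8. Promoter windows from 250 bases before to 50 after the start were found for 34 of 40 genes, and not for Psmb1, Psmb2, Psmb7, Psmc3, Psmd3 and Psmd7. Both strands were searched, and matches to different motifs may overlap. TGACNNNGC, read by the NRF1 and NRF2 factors, was in 6 of 36 member windows (16.7%, against 12.4% of all 32851 windows). CCAAT was in 36.1% (37.4% of all), TTCNNNGAA in 5.56% (8.30%) and the interferon-stimulated element (GAAA, any 2 bases, GAAA) in 11.1% (3.44%), in Psmb3, Psmd4, Psmd9 and Psme1. TGACNNNGC was in the windows of Psmb5, Psmb6, Psmd9, Psmc6, Psmd12 and Psme4. A match is a stretch of letters and was not tested as a site. Psmd12 and Psmc6 are shown with theirs in capitals, 250 bases before the start on the plus strand, at chr11:107479278-107479527 and chr14:45329574-45329823.

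Psmd12: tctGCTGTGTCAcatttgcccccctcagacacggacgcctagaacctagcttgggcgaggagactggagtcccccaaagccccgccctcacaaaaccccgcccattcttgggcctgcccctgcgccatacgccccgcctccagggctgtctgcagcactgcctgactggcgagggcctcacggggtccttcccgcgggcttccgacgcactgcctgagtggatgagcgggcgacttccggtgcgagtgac
Psmc6: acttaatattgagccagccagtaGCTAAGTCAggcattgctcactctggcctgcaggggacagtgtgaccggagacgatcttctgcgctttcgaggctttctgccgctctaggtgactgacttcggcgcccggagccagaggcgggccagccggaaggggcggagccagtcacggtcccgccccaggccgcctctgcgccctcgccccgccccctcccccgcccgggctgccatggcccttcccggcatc

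The Cy3 channel of the treatment arrays gave the genotype difference a second time, in other cultures and in 1 dye. Of 52 member probes with a value, none was called, against 1.49% of all probes, and 2 were higher (7.87% of all probes) and 4 lower (5.36%) at an unadjusted p under 0.05. Below 0 were 37 of 52, against 44.8% of all probes, and 32 were below 0 in both measures, against 31.1% of all probes measured in both. Of the 14 member probes called on the genotype arrays and measured here, 13 had the same sign, and the exception was the dimmest Psmd14 probe. Among all called probes measured in both, the share with the same sign was 91.7%. The median of 30 genes was -0.19 beside 0.10 for all genes and stayed below 0 with median centring (-0.39 beside 0.15), but it was 0.12 beside 0.24 for all genes without wild type array 1.

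Single members showed how far the cultures differed. The brightest Psmd12 probe read 10.59 and 9.51 in wild type and 9.34 and 9.06 in mutant cells (log2 Cy3 signal; difference -0.85 ± 0.40, adjusted p = 0.357). The called Psmc6 probe read 10.96 and 10.55 against 9.89 and 10.23 (adjusted p = 0.426). The other Psmc6 probe read 8.56 and 7.69 against 7.73 and 7.83 (adjusted p = 0.751), so there the genotypes overlapped. The Psme4 probe with the firmest call read 8.44 and 8.14 against 7.53 and 7.89 (adjusted p = 0.526). For these probes of Psmd12 and Psme4 and the called one of Psmc6, the mutant cultures lay below both wild type cultures, by differences that the fit of 2 against 2 did not call.

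**Figure D4:**
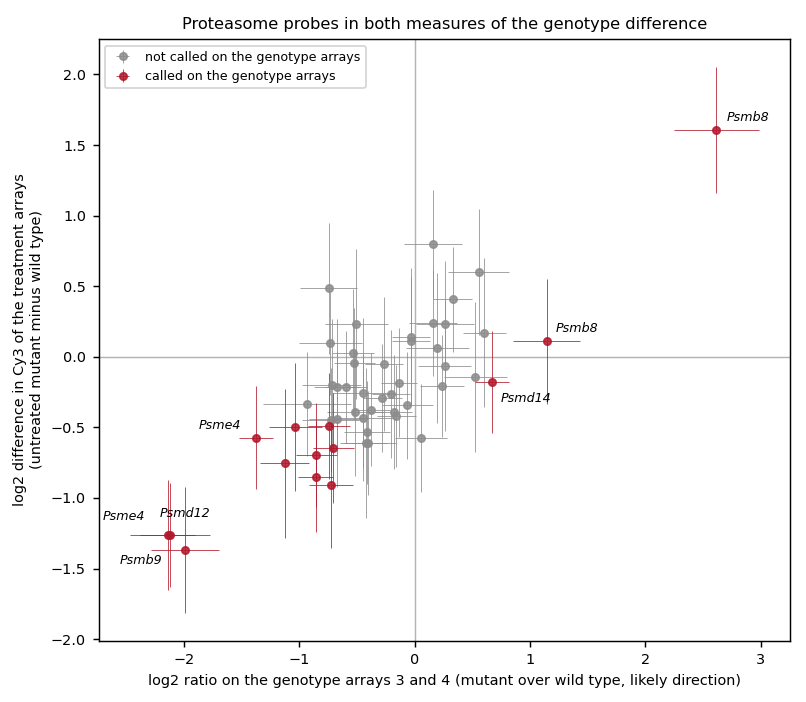
Log2 ratio of 52 proteasome probes on the genotype arrays (horizontal axis, likely direction) against their log2 Cy3 difference between untreated mutant and wild type cells on the treatment arrays (vertical axis), with bars of 1 SE and called probes in red. Of the 14 called probes drawn, 13 lie at lower left or upper right, with the same sign in both measures, beside 91.7% of all called probes.

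Across the 52 probes, the 2 measures had a Pearson r of 0.79, and over all 40228 probes an r of 0.62. Between ratios of a treatment and a genotype array, r over member probes ran from 0.10 (mutant array 1 with array 4) to 0.71 (wild type array 1 with array 3). Over all probes these pairs had an r of 0.07 and 0.54. Cy5 of the genotype arrays was also set against Cy3 of the mutant treatment arrays, both untreated mutant cells in the likely direction. This dye contrast shares its Cy5 signals with the genotype ratio, and their r was 0.61 over 61 member probes and 0.46 over all probes. Among probes called lower it ran from -1.33 (Psmd13) to 0.32 (the brightest Psmd12 probe). The part of the dye in the ratios was not tested. These are descriptions, since the probes share their arrays.

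**Figure D5:**
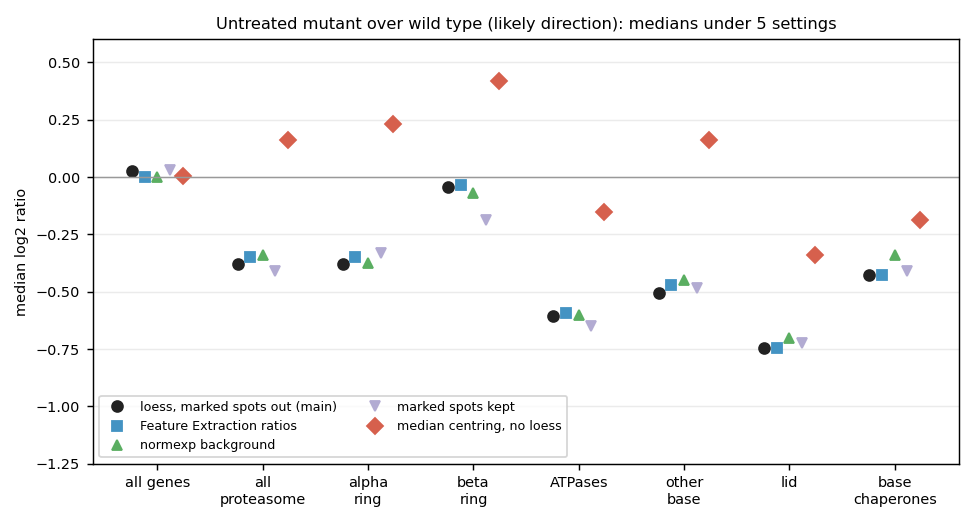
Median log2 ratio of untreated mutant over wild type cells (vertical axis, likely direction) for all genes and for proteasome genes by role, under 5 ways of processing the same arrays. With loess the medians of all 7 proteasome groups drawn lie below 0, and with median centring those of the whole family, the alpha ring, the beta ring and the other base genes lie above 0, while ATPases (-0.15), lid (-0.34) and base chaperones (-0.19) stay below.

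Genes that work with the proteasome were counted from lists. Of 9 partners, among them the shuttle proteins that bring ubiquitylated substrates, 1 was lower and none higher in mutant cells (median -0.32), beside 9.78% of all probes called lower. It was Usp14, a deubiquitinase bound to the base, with -0.91 and -1.11 (adjusted p = 0.0216). Of 6 regulators, 1 was higher, beside 9.83% of all probes: Nfe2l2, which encodes the antioxidant factor NRF2, with 1.63 and 0.99 (1.31 ± 0.19, adjusted p = 0.00662). Nfe2l1, the gene of NRF1, the factor that raises subunit genes when the proteasome is inhibited, stood at 0.85 and 0.40 (adjusted p = 0.0599). None of 7 genes for ubiquitin and its first enzymes was called, and none passed an unadjusted p under 0.05.

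Antigen presentation genes, the companions of the immunoproteasome, went the other way from Psmb9. Of 9 measured, 5 were higher in mutant cells and none lower (median 1.15). The loading factor Tapbp had 2.40 and 2.01, the trimming peptidase Arts1 1.06 and 3.36, the class I heavy chains H2-K1 2.02 and 1.67 and H2-D1 0.92 and 1.37, and the transcription factor Irf1 1.90 and 1.34. In Cy3 of the treatment arrays Tapbp (1.85, adjusted p = 0.00985) and H2-K1 (1.55, adjusted p = 0.0410) were called as well.

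Markers of cell types moved with genotype too. For the counts that follow, 9.83% of all probes were called higher, 9.78% lower and 19.6% in either direction. Of 11 fibroblast markers, each well above background in Cy3 on all 6 arrays, 6 were higher in mutant cells and none lower. Of 5 mast cell and basophil markers 2 were lower, Mcpt8 at -4.83 and Mcpt4 at -0.99, while Cpa3 (0.10), Ms4a2 (0.18) and Fcer1a (0.15) were not called and the median was 0.10. Their summed Cy3 signal was 945 to 1290 in untreated wild type and 197 to 203 in mutant cultures. The markers did not share this fall. In that channel Mcpt8 differed by -4.19 and Mcpt4 by -1.01, but Cpa3 by 0.95, Ms4a2 by 0.09 and Fcer1a by 0.30. For the 6 T and NK cell markers, of which 1 was lower, the summed signal was 415 to 470 against 469 to 557. None of 12 macrophage markers (1005 to 1204 against 1125 to 1430) or 3 dendritic cell markers (97.2 to 129 against 115 to 185) was called. The part of the markers in the proteasome values was not tested.

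No proteasome gene passed the test for H2O2 at 24 hours in either genotype. In wild type cells none of 52 member probes was called, against 0.258% of all probes, and the lowest adjusted p was 0.0804. Without the adjustment, 4 were higher (9.98% of all probes) and 7 lower (10%) at a p under 0.05. The median of 30 genes was 0.07 beside 0.00 for all genes, but 0.61 beside 0.02 with median centring and -0.0094 with all probes of a gene averaged. With the 2 wild type arrays fitted on their own, 14 member probes were called, 5 higher and 9 lower, as were 10115 of all probes.

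The highest core gene in wild type cells was Psma1 of the alpha ring, at 0.59 on both arrays (adjusted p = 0.151). Psmc6 stood at 0.49 and 0.42 (adjusted p = 0.215). The lowest genes by role with both arrays were Psmb4 (0.02 and -0.04), Psmc1 (0.15 and 0.08), Psmd14 (0.01 and -0.19) and Psmd5 (-0.23 and -0.31), so none of them lay beyond 0.31 from 0. Psmd7 led the lid at 0.19 and 0.12, Psmd10 the chaperones at 0.16 and 0.07, and the brightest Psme4 probe stood at 0.03 and -0.14. The other 3 Psme4 probes were lower on both arrays, at -0.58 and -0.54 (adjusted p = 0.104), -0.78 and -0.75 (adjusted p = 0.140), and -0.56 and -0.50 (adjusted p = 0.190), each with an unadjusted p under 0.05.

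With marked spots out, values below -1 in wild type cells rested on 1 array or on 1 of several probes. Psmd13 of the lid had both spots marked. With them kept, its only probe stood at -2.78 and -1.81 (log2 ratio -2.29, adjusted p = 0.0574). Psmb9 stood at -1.83 on array 1 (adjusted p = 0.0890), and its marked spot on array 2 at -0.25. A probe of Psmd2, a base scaffold, stood at -1.37 on array 1 (adjusted p = 0.0804), while its brightest probe stood at 0.08. A probe of the ATPase Psmc5 stood at -1.55 and -0.53 (adjusted p = 0.111) against 0.07 and 0.16 on its brightest probe. The lid gene Psmd3 stood at -0.85 on array 1. On array 1 the brighter Psmb8 probe stood at 0.67 and Psmb10 at -0.48, and their marked spots on array 2 at -0.58 and -0.71. The dimmer Psmb8 probe stood at 0.17 and -0.44.

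In mutant cells none of 62 member probes was called, and none of all probes was (0%). Before adjustment, none of the members was higher (5.81% of all probes) and 5 were lower (6.21%) at a p under 0.05. The median of 40 genes was 0.03 beside 0.01 for all genes, but 0.96 beside 0.06 with median centring. With the 2 mutant arrays on their own, 8 member probes were called, 1 higher and 7 lower, as were 4380 of all probes. Psma1 again led the core at 0.37 and 0.38, and Psmb4 was lowest at -0.30 and -0.42. Psmc6 led the ATPases at 0.31 and 0.19, and Psmc4 was lowest at -0.03 and -0.32. Psmd13 stood at -1.16 and -1.81 (adjusted p = 0.345), with a treated signal not well above background on array 2, and Psmd1 stood at 0.32 and -0.06. Psme3, the activator of the nucleus, stood at -0.76 and -0.45 (adjusted p = 0.346), the brightest Psme4 probe at 0.17 and 0.18, and Psmd10 at 0.03 and 0.00.

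The immunoproteasome genes in mutant cells also differed among themselves. Psmb9 stood at -0.45 and -0.89 (adjusted p = 0.438), with a treated signal not well above background on array 2. Psmb10 stood at -0.62 and -0.73 (adjusted p = 0.360), the brighter Psmb8 probe at 0.44 and 0.69 (adjusted p = 0.599) and the dimmer, with no treated signal well above background, at 0.43 and -0.23. With the marked spots out, Psmb9 was thus below 0 and the brighter Psmb8 probe above 0 on every array with a value, in both genotypes, and so was Psmb10 below 0, except that median centring gave it 0.03 in wild type and 0.06 in mutant cells.

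The difference between the responses was tested itself. None of 52 member probes was called and none of all probes (0%), and at an unadjusted p under 0.05, 3 member probes were higher in mutant cells (3.27% of all probes) and none lower (2.67%). The lowest unadjusted p belonged to Psme4. Its probe with the firmest genotype call stood at -0.58 and -0.54 in wild type and at 0.24 and 0.13 in mutant cells, so the genotypes lay on either side of 0 (difference 0.75, adjusted p = 0.713). The dim probe of the same gene stood at -0.78 and -0.75 in wild type and 0.13 and 0.34 in mutant cells (difference 1.00, adjusted p = 0.801), where the treated signal was not well above background on either array. The last was the Psmd2 probe with 1 wild type array (difference 0.99, adjusted p = 0.811).

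Likeness of pattern was measured by Pearson r over the arrays among 6010 genes with a value on every array and a mean log2 intensity above 6. Over the 5 arrays with a Psmb9 value, the most alike were BF149076, Gys1, LOC194735, Olfm3 and Wnt6 (r of 0.997 to 1.00). Over 6 arrays, the median of the constitutive core was most like H2-M9, Adam10, Cdkn2d, Mllt2h and 2310079P12Rik (r of 0.946 to 0.974). With 5 or 6 points per gene and so many genes searched, such values describe these arrays only.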

How the data were processed

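The deposited scanner files give a mean intensity and a local background intensity of every spot in Cy3 and Cy5, read by the authors with Feature Extraction (A.7.5.1 per the file headers), beside the log10 ratios and flags of that software. The authors' series table holds log2 ratios, loess-normalized. The flags, other columns of the deposited files, served to leave spots out. RNA was total per the labels and cytoplasmic per the methods.

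Here, background was subtracted, ratios were loess-normalized within arrays, spots marked as outliers were left out and spots of a probe averaged (limma 3.58.1, R 4.3.3). The 6 arrays entered 1 model (lmFit, eBayes) with 1 coefficient per comparison, with two-sided p-values adjusted by Benjamini-Hochberg over all probes and called under 0.05. A value from 1 array borrows the spread of the others. The Cy3 channels were compared after quantile normalization of intensities between arrays. A gene is represented by its probe of highest mean intensity. The number of arrays limits the precision. A lower bound on a fold set the brighter channel against the lowest signal well above background.

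Named were the immunoproteasome genes, called genes, the highest and lowest gene of each role per comparison with both arrays, and genes whose probes, both above a mean log2 intensity of 6, differed by over 1. The cell type, partner and antigen presentation lists and the members were chosen with earlier results of these data known. Of 62 probes, 52 accessions matched a RefSeq gene of GRCm38.p6, each under the same symbol. The fits were tested on simulated data. Promoters and plots used Python 3.11.15, pandas 2.3.3 and matplotlib 3.10.9. The scan was read out on 1 day for the 4 treatment arrays and on a day each for arrays 3 and 4, and each slide held 1 array. Replicate numbers 1 and 2 were checked for pairing. The alternatives tried were normexp background, scanner ratios, median centring, the series table, marked spots kept, bright probes only, arrays fitted apart, each array left out, read-out day as a random block, the replicate number as a block and probes averaged.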

Additional observations from a re-analysis of the deposited data

How the results depend on the processing

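On the genotype arrays, 1 Psme4 probe (-1.38) was called under all 10 alternatives, and the brighter Psmb8 probe under the 9 run for it, since it was too dim for the bright probes setting. Beside 16 calls there, 3 were made with the ratios of the scanner software, 6 with median centring and 6 with the 2 arrays on their own, 9 with read-out day as a random block, 26 with the series table and 27 with marked spots kept. With marked spots kept or normexp, 16 and 11 of the 16 were shared. The family median (-0.38) was -0.33 to -0.26 with 1 array left out and -0.27 with probes averaged.

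Median centring gave medians of 0.16 for genotype, 0.61 and 0.96 for H2O2 in wild type and mutant cells and 0.34 for their difference, and 1 call each in mutant cells and in Cy3. It also turned Psmb4 to 0.56 and 0.51, Psmb10 to 0.034 and 0.063, Psmd14 to 0.48, Psme4 to 0.51 and Psmd5 to 0.31 for H2O2, Psmc4 to 0.67, Psme3 to 0.27 and the dimmer Psmb8 probe to -0.27 in mutant cells, Psmc1 to 0.29 and the dimmest Psmd14 probe to -0.18 for genotype, and Psmd2 to 0.66 for the difference of responses. The cause was not tested.

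For H2O2 in wild type cells, 2 calls were made with normexp and 14 with these arrays alone, and the median (0.07) was 0.021 with normexp, 0.062 with scanner ratios, 0.051 with the series table, 0.050 with marked spots kept, 0.059 for bright probes, -0.0094 with probes averaged and 0.078 to 0.080 with 1 array left out. Psmb4 turned to 0.055 with the series table and with marked spots kept. In mutant cells, 8 calls were made with these arrays alone, the median was -0.10 to 0.067 with 1 array left out, and Psmd10 turned to -0.025 with normexp and -0.00087 with scanner ratios. The difference of responses had 1 call with these arrays alone and a median of 0.064 with probes averaged. In Cy3, 0 to 2 calls were made with 1 array left out, the brighter Psmb8 probe turned to -0.032 with marked spots kept and the dimmer to -0.084 with normexp.

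Same-numbered treatment arrays did not deviate together (r = -0.05 over 29913 probes). With 2 arrays per genotype, this r cannot settle whether cultures of the same number were paired. With the replicate number as a block, the difference of responses kept 0 calls, and Cy3 had 2 calls and Psmb10 at 0.25. No fit with the slide as a block was run, since each slide held 1 array.

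With 1 array left out, values near 0 changed sign. In wild type cells these were Psmb4 (-0.042 to 0.023), Psmd14 (-0.19 to 0.0079), Psme4 (-0.14 to 0.027) and the dimmer Psmb8 probe (-0.44 to 0.17). In mutant cells they were Psmd1 (-0.063 to 0.32), Psmd10 (-0.0024 to 0.034) and the dimmer Psmb8 probe (-0.23 to 0.43). On the genotype arrays they were Psma1 (-0.082 to 0.55), Psmb10 (-0.15 to 0.67) and Psmd10 (-0.22 to 0.54), and in Cy3 Psmb10 (-0.38 to 0.25), Psme4 (-0.77 to 0.34) and the dimmer Psmb8 probe (-0.71 to 0.93). Precision was limited by 2 arrays per comparison and, in Cy5, by 13 of 62 probes not well above background on all 6 arrays.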
